A study of Mus musculus with 18 samples.

Results

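The circadian clock genes described here are 10 transcripts, namely Per1, Per2, Per3, Cry1, Cry2, Nr1d1, Nr1d2, Dbp, Tef and Ciart. They were taken by name from the 35405 genes of an RNA sequencing table of mouse colon. Polyadenylated RNA was sequenced in 18 libraries, which form 3 groups of 6. The vector group is named control in the table. The TNBS group is named for trinitrobenzene sulfonic acid, a contact sensitiser given to rodents to produce colitis, and the IBC group for isobavachalcone, a chalcone from plants. The series title places isobavachalcone in TNBS colitis, and the question put to these genes was whether they differ between the groups. Whether the IBC mice were also given TNBS is not said in the labels, and strain, sex, age, dose, route and duration are not given either. The hour at which tissue was taken, which bears on every clock transcript, is not given. Nothing says that the libraries come from separate animals, and the p-values therefore describe only how these libraries spread, which may be in part technical.

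The clock of mammalian cells is a loop of transcription and feedback that runs with a period of about a day. BMAL1 pairs with CLOCK or NPAS2 and binds E-boxes to drive the Per, Cry, Nr1d, Dbp, Tef and Ciart genes, and the PER and CRY proteins then shut that activity down. REV-ERB proteins, made from Nr1d1 and Nr1d2, repress Bmal1 through response elements shared with the ROR activators, so the Bmal1 transcript runs in the opposite phase to Dbp and Nr1d1. In the gut the loop runs in the epithelium and in the muscle layer, and it is known for its part in nutrient uptake, renewal of the epithelium and the timing of immune responses.

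Promoter windows of the members were searched for the elements named above. Each window runs from 250 bases before to 50 bases after a RefSeq gene start on GRCm38.p6, and 9 of the 10 members had one, all but Per2. The E-box CACGTG lay in the windows of 4 of the 9 (Per1, Cry1, Tef and Ciart), and in 7.15% of 32851 windows of all genes. The variant CACGTT, read as AACGTG on the other strand, lay in those of Cry1, Cry2 and Nr1d1 and in 4.68% of all windows. The D-box TTATGTAA, bound by DBP, TEF and their repressor NFIL3, lay in the Per3 window alone among the members and in 0.938% of all windows. The core AGGTCA of the element for ROR and REV-ERB lay in the windows of Per1 and Nr1d2 and in 16.3% of all windows. All 4 motifs were searched on both strands, and none overlaps another in the windows printed. A match is a description of letters and no evidence of binding. Windows of 5 members are shown with the motifs in capitals: Ciart for its 3 E-boxes, Per3 for its 2 D-boxes, Cry1 for both E-box forms, Per1 for an E-box beside an AGGTCA core, and Tef for a single E-box. They are Ciart at chr3:95882179-95882478 on the minus strand, Per3 at chr4:151044616-151044915 on the minus strand, Cry1 at chr10:85185005-85185304 on the minus strand, the first of 2 Tef windows at chr15:81802423-81802722 on the plus strand, and the first of 2 Per1 windows at chr11:69098699-69098998 on the plus strand. All are written 5′ to 3′ along the strand of the gene.
Ciart: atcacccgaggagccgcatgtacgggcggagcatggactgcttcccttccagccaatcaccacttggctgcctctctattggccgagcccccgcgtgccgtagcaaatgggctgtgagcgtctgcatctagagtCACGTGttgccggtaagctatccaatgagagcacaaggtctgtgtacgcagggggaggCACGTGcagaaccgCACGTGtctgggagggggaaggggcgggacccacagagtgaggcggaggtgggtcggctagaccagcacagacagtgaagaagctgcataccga
Per3: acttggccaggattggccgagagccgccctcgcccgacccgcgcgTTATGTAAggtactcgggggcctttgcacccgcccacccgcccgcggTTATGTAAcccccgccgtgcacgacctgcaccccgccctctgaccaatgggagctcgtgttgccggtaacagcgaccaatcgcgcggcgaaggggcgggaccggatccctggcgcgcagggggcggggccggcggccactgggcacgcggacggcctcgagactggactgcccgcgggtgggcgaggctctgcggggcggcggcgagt
Cry1: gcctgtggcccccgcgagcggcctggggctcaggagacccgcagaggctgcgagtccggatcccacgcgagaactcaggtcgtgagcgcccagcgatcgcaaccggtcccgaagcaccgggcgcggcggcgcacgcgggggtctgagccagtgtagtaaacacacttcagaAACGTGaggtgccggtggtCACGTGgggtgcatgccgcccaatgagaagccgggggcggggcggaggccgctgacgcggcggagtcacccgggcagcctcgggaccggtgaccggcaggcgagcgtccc
Tef: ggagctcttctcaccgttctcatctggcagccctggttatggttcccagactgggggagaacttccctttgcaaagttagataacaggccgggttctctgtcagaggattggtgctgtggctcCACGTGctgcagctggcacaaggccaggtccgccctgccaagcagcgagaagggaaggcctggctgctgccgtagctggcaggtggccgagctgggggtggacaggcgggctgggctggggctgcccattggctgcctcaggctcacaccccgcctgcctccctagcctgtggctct
Per1: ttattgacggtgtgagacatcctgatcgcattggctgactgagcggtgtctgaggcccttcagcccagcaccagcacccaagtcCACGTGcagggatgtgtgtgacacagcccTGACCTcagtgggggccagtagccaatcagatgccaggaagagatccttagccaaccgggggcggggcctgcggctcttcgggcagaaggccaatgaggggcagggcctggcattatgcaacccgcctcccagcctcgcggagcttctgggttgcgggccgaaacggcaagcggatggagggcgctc
The E-boxes of Ciart begin at positions -116, -58 and -44, where -1 is the base just before the start. Those of Tef and Per1 begin at -127 and -166. The D-boxes of Per3 begin at -205 and -158.

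In the coordinates of the deposited table, whose build is not named, the period genes are Per1 (ENSMUSG00000020893, chr11:68986043-69000786, plus strand), Per2 (ENSMUSG00000055866, chr1:91343704-91387046, minus strand) and Per3 (ENSMUSG00000028957, chr4:151088109-151129122, minus strand). The cryptochromes are Cry1 (ENSMUSG00000020038, chr10:84967564-85020928, minus strand) and Cry2 (ENSMUSG00000068742, chr2:92233991-92264388, minus strand). The genes of the REV-ERB receptors are Nr1d1 (ENSMUSG00000020889, chr11:98658758-98666159, minus strand) and Nr1d2 (ENSMUSG00000021775, chr14:4230569-4265642, plus strand). The output regulators are Dbp (ENSMUSG00000059824, chr7:45354512-45359627, plus strand), Tef (ENSMUSG00000022389, chr15:81686622-81711064, plus strand) and Ciart (ENSMUSG00000038550, chr3:95785815-95789543, minus strand). All values are sums over a whole gene, with no exon or isoform set apart.

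The 18 libraries held totals of 55.7 to 78.9 times 1000000 counts, and mitochondrial genes took 4.48% to 9.20% of the counts in all libraries but vector 3, where they took 17.98%. All 8 colonocyte markers (such as Epcam, Krt20 and Slc26a3) were detected in every library, and so were all 8 smooth muscle markers. The summed smooth muscle level ran from 2982 to 8411 CPM (counts per 1000000 counts of a total scaled by TMM) in vector, from 1909 to 4656 in TNBS and from 2570 to 5018 in IBC, and the summed level of 6 neutrophil markers from 1.72 to 4.01, from 6.42 to 251 and from 3.78 to 73.5. In 6 libraries (vector 3 and 4, TNBS 2 and 3, IBC 2 and 5) the transcript of Hoxb13, which marks the hindmost gut, was at 0 to 1.44 CPM, against 122 to 600 CPM in the other 12. These libraries stand apart in many genes, so results are also given within or across both sets. In bulk tissue, fewer cells of a type and less RNA per cell cannot be told apart.

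All 10 members were detected in every library and passed the filter on low counts. On the FPKM scale, which is per length and allows genes to be compared, Nr1d1 had the highest mean at 20.3 ± 9.77 FPKM (SD, n = 18), followed by Nr1d2 at 14.3 and Dbp at 12.8. Tef averaged 8.97, Per2 5.86, Cry1 5.58 and Per1 4.97 FPKM. Cry2 at 2.86, Per3 at 2.57 and Ciart at 1.99 FPKM were at the low end. Neighbours in this order overlapped. Nr1d1 exceeded Nr1d2 in 14 of 18 libraries, Nr1d2 exceeded Dbp in 12, Per2 exceeded Cry1 in 9 and Cry1 exceeded Per1 in 9, whereas Per1 exceeded Cry2 in 18 of 18.

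None of the 10 members differed between TNBS and vector after adjustment over the 20855 genes tested (edgeR's quasi-likelihood test, Benjamini-Hochberg adjusted p under 0.05), where 0.0192% of all genes did. At an unadjusted p under 0.05 there were 3 of 10, Per1, Cry2 and Nr1d1, each with a lower mean in TNBS, against 7.32% of all genes in that direction and 17.8% in either. The estimate was below 0 for 9 of 10 members, against 51.1% of all genes, and the median log2 difference was -0.44 over the members and -0.01 over all genes. With group means removed, all 36 pairs of members that leave out Cry1, set apart after its values were seen, had a positive r (median 0.60). The 10 members are therefore not 10 separate results. They were also chosen with earlier results of these data known. No member separated the groups without overlap, which 1.17% of all genes did. In the same comparison 8 of 8 smooth muscle markers had a lower mean in TNBS (1 called) and 6 of 6 neutrophil markers a higher one (0 called, 6 at an unadjusted p under 0.05). Also at an unadjusted p under 0.05 were 5 of 5 red blood cell markers, with a lower mean, and 2 of the 3 squamous epithelium markers tested, with a higher one. The part of these cells in the clock gene levels was not tested.

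For IBC against TNBS, 0 of 10 members passed, as did 0% of all genes. Per3 and Cry2 were the 2 of 10 at an unadjusted p under 0.05, both with a higher mean in IBC, against 1.71% of all genes in that direction and 3.93% in either. The estimate was above 0 for 9 of 10 members and for 50.3% of all genes, with medians of 0.52 and 0.00. This comparison and the one of TNBS with vector share the TNBS libraries, so low TNBS values enter both with opposite sign. The members are also related to each other, so 9 of 10 is not a count of separate results. Between IBC and vector, 0 of 10 passed (0% of all genes) and 0 of 10 had an unadjusted p under 0.05 (8.53% of all genes). The estimate was above 0 for 4 members (49.1% of all genes) and below 0 for 6 (50.9% of all genes), with a median of -0.08 over the members and -0.01 over all genes. DESeq2 and limma called 0 of the 10 members in each of the 3 comparisons too.

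**Figure D1:**
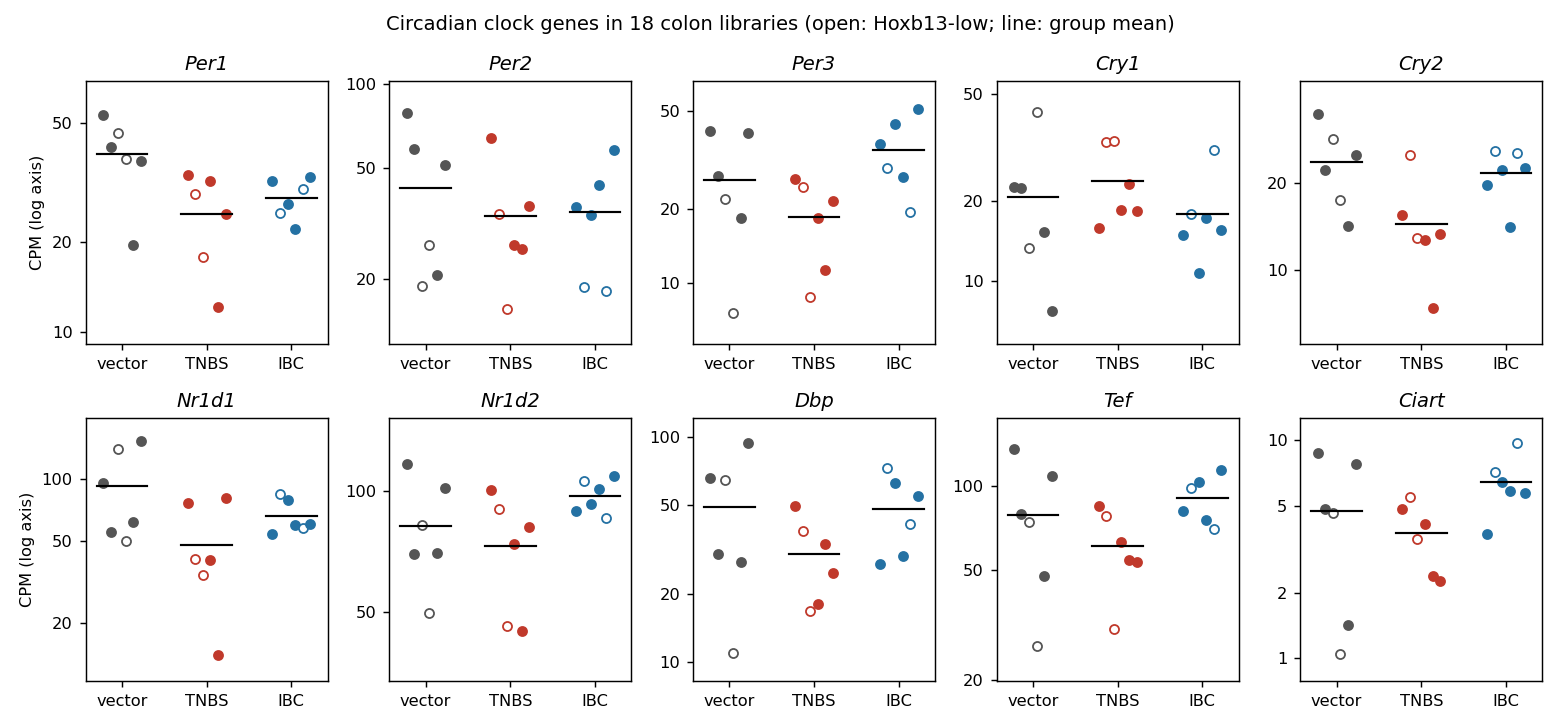
Level of each clock gene (CPM, log axis) in every library by group, with a line at the group mean and open symbols for the 6 libraries low in Hoxb13. The groups overlap for all 10 genes, and the vector libraries spread from 10.9 to 93.7 CPM for Dbp, against 27.2 to 73.0 CPM in IBC.

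Per1, a repressor of the loop that also answers directly to glucocorticoids and other acute signals, ran from 19.5 to 52.9 CPM in vector (median 39.7), from 12.2 to 33.4 in TNBS (median 26.7) and from 22.1 to 32.8 in IBC (median 28.4). All 6 TNBS and all 6 IBC libraries lay under the vector median, and vector 5 was the one vector library down among them. The log2 difference was -0.66 ± 0.24 (SE, 95% interval -1.16 to -0.16, unadjusted p = 0.0120, adjusted p = 0.198 in edgeR) for TNBS against vector. It was 0.18 ± 0.24 for IBC against TNBS and -0.48 ± 0.24 between IBC and vector (edgeR adjusted p = 0.610). Tsc22d3, another gene induced by glucocorticoids, had 55.6 to 164 CPM in vector, 45.1 to 77.1 in TNBS and 38.8 to 49.6 in IBC, with log2 differences from vector of -0.89 ± 0.22 and -1.23 ± 0.22 (edgeR adjusted p = 0.106 and 0.125). Of the 11 genes of the glucocorticoid list, which includes Tsc22d3, 2 in each of these comparisons had an unadjusted p under 0.05 with a lower mean, where 7.32% of all genes did for TNBS and 3.63% for IBC, and 0 passed after adjustment. The list did not go one way, with 5 of 11 higher in TNBS and 4 of 11 higher in IBC than in vector.

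Per2, the period gene whose loss most disturbs the rhythm of mice, ran from 18.8 to 78.9 CPM in vector (median 38.7), from 15.5 to 64.0 in TNBS (median 30.2) and from 18.1 to 57.9 in IBC (median 34.96). The 3 ranges lay almost on top of each other. The log2 difference was -0.33 ± 0.39 for TNBS against vector and 0.04 ± 0.39 for IBC against TNBS, with a 95% interval of -0.78 to 0.86. Single libraries weighed on the first value, which was -0.061 without vector 1 and -0.62 without TNBS 1. Per3, a period gene that the core loop can do without, ran from 7.54 to 41.5 CPM in vector (median 24.7), from 8.77 to 26.5 in TNBS (median 20.01) and from 19.5 to 51.1 in IBC (median 33.1). Of the IBC libraries, 5 of 6 lay above every TNBS library, and IBC 5 lay under the TNBS median. The log2 difference was 0.90 ± 0.36 for IBC against TNBS (unadjusted p = 0.0209, adjusted p = 0.925 in edgeR), -0.50 ± 0.36 for TNBS against vector and 0.40 ± 0.36 for IBC against vector.

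The cryptochromes are the stronger repressors of BMAL1 and CLOCK, and their transcripts differed in pattern here. Cry1 was the one member with a higher mean in TNBS than in vector, at 7.77 to 43.1 CPM in vector (median 18.8), 15.9 to 33.5 in TNBS (median 20.8) and 10.8 to 31.0 in IBC (median 16.4). Its log2 difference was 0.20 ± 0.34 for TNBS against vector and -0.41 ± 0.34 for IBC against TNBS, neither past the threshold. Cry2 ran from 14.2 to 34.7 CPM in vector (median 23.6), from 7.37 to 25.0 in TNBS (median 13.1) and from 14.1 to 25.9 in IBC (median 22.4). TNBS 2 was the only TNBS library above the vector median, and all 6 IBC libraries lay above the TNBS median. The log2 difference of Cry2 was -0.71 ± 0.25 for TNBS against vector (95% interval -1.24 to -0.18, unadjusted p = 0.0117, adjusted p = 0.198 in edgeR). It was 0.58 ± 0.25 for IBC against TNBS (unadjusted p = 0.0342, adjusted p = 0.925) and -0.13 ± 0.25 between IBC and vector.

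Nr1d1, which encodes REV-ERBα, a nuclear receptor that represses Bmal1 and inflammatory genes, ran from 49.7 to 152 CPM in vector (median 78.6), from 14.0 to 80.5 in TNBS (median 40.8) and from 54.1 to 84.9 in IBC (median 60.05). TNBS 5 held the lowest value of all, and that library also had the highest summed neutrophil level, 251 CPM. Across the 18 libraries, with group means removed, Nr1d1 had r = -0.66 with the neutrophil sum. This was not particular to Nr1d1. Cry2 had -0.52, Nr1d2 -0.43 and Per1 -0.41, the other members lay between -0.26 and 0.18, and Npas2, outside the members, had -0.67. The part of neutrophil number in the level of Nr1d1 was not tested. The log2 difference was -0.95 ± 0.35 for TNBS against vector (95% interval -1.69 to -0.21, unadjusted p = 0.0151, adjusted p = 0.206 in edgeR), the largest of the 10 members. Over each library left out in turn it stayed between -1.16 and -0.74. It was 0.46 ± 0.35 for IBC against TNBS and -0.48 ± 0.35 between IBC and vector.

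Nr1d2 encodes the related receptor REV-ERBβ, and it had the smallest SD of log2 CPM of the members in vector and in IBC (0.44 and 0.14). It ran from 49.7 to 117 CPM in vector (median 76.3), from 44.9 to 101 in TNBS (median 77.7) and from 85.8 to 109 in IBC (median 96.8). All 6 IBC libraries lay above both other medians, within a 1.27-fold range. The log2 difference was -0.17 ± 0.21 for TNBS against vector, 0.42 ± 0.21 for IBC against TNBS (edgeR adjusted p = 0.925) and 0.25 ± 0.21 between IBC and vector.

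Dbp and Tef encode transcription factors that act on D-boxes and carry the rhythm to output genes. Dbp ran from 10.9 to 93.7 CPM in vector (median 47.3), from 16.8 to 49.5 in TNBS (median 29.2) and from 27.2 to 73.0 in IBC (median 47.6). Tef ran from 26.5 to 136 CPM in vector (median 77.0), from 30.6 to 84.9 in TNBS (median 58.7) and from 70.2 to 115 in IBC (median 90.0). In both genes vector 4 held the lowest of the 18 values, and vector 6 or vector 1 the highest. The log2 differences for TNBS against vector were -0.70 ± 0.41 for Dbp (edgeR adjusted p = 0.367) and -0.38 ± 0.31 for Tef. Set against TNBS, IBC gave 0.67 ± 0.41 and 0.58 ± 0.31. For IBC against vector, the estimate for Dbp was -0.02 with a 95% interval of -0.88 to 0.84, so a difference of that size either way could not be told from none. Dbp overlaps Sphk2 on the other strand, at 51.2 to 88.7 CPM, and use of strand in the counting is not given in the sources used here.

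Ciart, a repressor of BMAL1 and CLOCK also known as CHRONO, was the least abundant member. It ran from 1.05 to 8.76 CPM in vector (median 4.75), from 2.27 to 5.46 in TNBS (median 3.82) and from 3.73 to 9.75 in IBC (median 6.14). Vector 4 and vector 5 lay under all other libraries at 1.05 and 1.43 CPM. The log2 difference was -0.34 ± 0.42 for TNBS against vector, 0.77 ± 0.42 for IBC against TNBS and 0.44 ± 0.42 between IBC and vector (edgeR adjusted p = 0.673, 0.925 and 0.850). The Ciart locus overlaps C920021L13Rik on the other strand, which ran from 1.67 to 3.71 CPM, so the low Ciart values may hold reads of either gene.

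**Figure D2:**
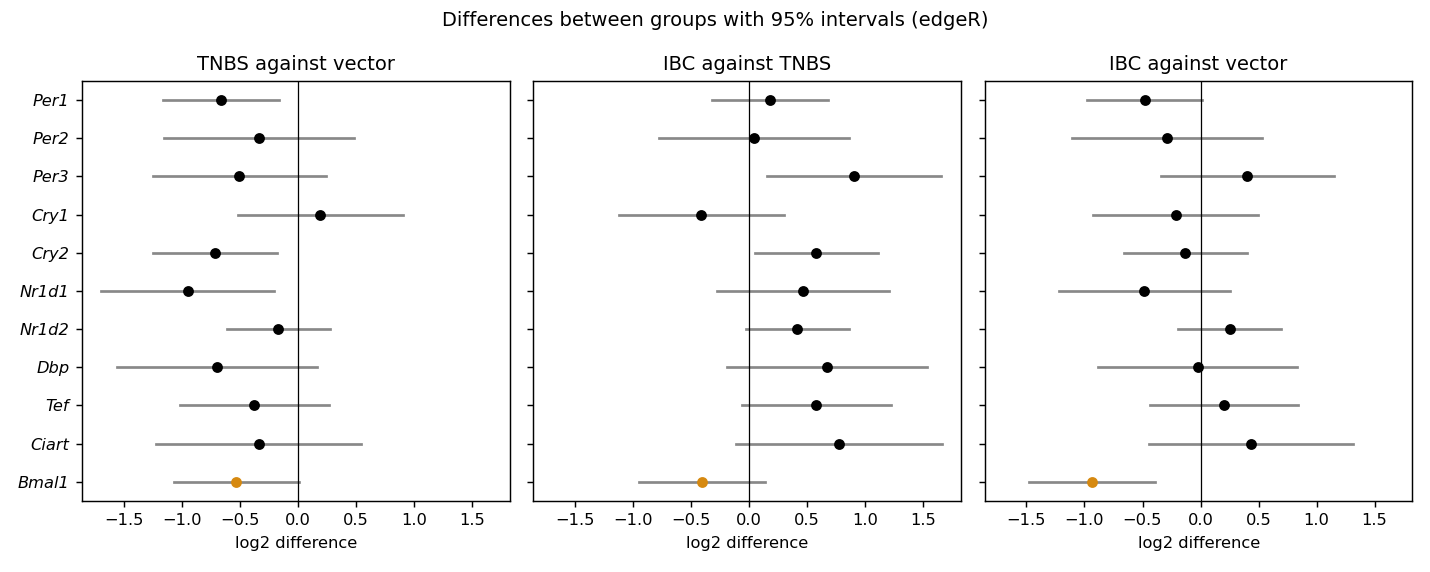
Log2 difference (horizontal axis) of the 10 clock genes and Bmal1 (orange) in the 3 comparisons of groups, with 95% intervals from edgeR. In TNBS against vector 9 of 10 members lie to the left of 0, and in IBC against TNBS 9 of 10 lie to the right, both against the same TNBS libraries.

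Among the other genes of the loop, Bmal1 (called Arntl in older annotations) ran from 12.1 to 41.7 CPM in vector (median 23.4), from 12.4 to 28.4 in TNBS (median 14.9) and from 11.4 to 16.4 in IBC (median 13.02). All 6 IBC libraries lay under the vector median, within a 1.45-fold range. Its log2 difference was -0.93 ± 0.26 for IBC against vector (unadjusted p = 0.00196, adjusted p = 0.283 in edgeR) and -0.53 ± 0.26 for TNBS against vector (adjusted p = 0.289). Npas2, the partner that can stand in for CLOCK, had estimates of -0.69 ± 0.30 and -0.66 ± 0.30 for TNBS and IBC against vector (edgeR adjusted p = 0.247 and 0.550). Clock itself had -0.17 ± 0.21 and -0.26 ± 0.21. Nfil3, which represses through D-boxes, had 0.54 ± 0.42 for TNBS against vector and -0.83 ± 0.42 for IBC against TNBS (edgeR adjusted p = 0.488 and 0.925).

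Of 4 further lists of clock genes, none had a member past the threshold in a comparison of groups. At an unadjusted p under 0.05 for TNBS against vector there were 1 of 7 activators (lower), 2 of 4 other repressors and PAR bZIP factors (both lower), 0 of 6 kinases and ubiquitin ligases, and 2 of 9 output genes (1 higher, 1 lower). These are 5 of 26 genes, a share near the 17.8% of all genes. The smallest p-values belonged to Tspan4 (log2 difference 1.71 ± 0.38, adjusted p = 0.0909 in edgeR), Tsc22d3 and Bhlhe41, a repressor at E-boxes (-0.75 ± 0.29, adjusted p = 0.217). For IBC against TNBS, Wee1, a kinase that holds back mitosis, was the only one of these 26 genes at an unadjusted p under 0.05, with 0.41 ± 0.16 (edgeR adjusted p = 0.925). For IBC against vector there were 2 of 7 activators (Bmal1 and Npas2, lower), 1 of 4 repressors and 4 of 9 output genes (2 higher, 2 lower). These are 7 of 26 genes, against 8.53% of all genes. The lists were chosen with earlier results of these data known, so the count is no test of clock genes. Of the 7, 4 are output genes, among them Tsc22d3, which is also on the glucocorticoid list. The repressor was Bhlhe40, with 116 to 159 CPM in IBC and 67.7 to 108 in vector, ranges that do not overlap (0.64 ± 0.23, adjusted p = 0.421 in edgeR). Tspan4 (18.1 to 46.1 CPM in IBC and 9.34 to 16.8 in vector) and Tsc22d3 did not overlap either, which makes 3 of these 26 genes, against 1.08% of all genes. That count has the same limit.

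The spread between libraries of a group was itself unequal. The median SD of log2 CPM over the 10 members was 0.84 in vector, 0.57 in TNBS and 0.39 in IBC, against 0.37, 0.55 and 0.43 over all genes tested. The median of the members exceeded the SD of 83.7% of all genes in vector, 51.5% in TNBS and 44.6% in IBC. Every member had a larger SD in vector than in IBC (10 of 10), 9 of 10 had a larger one in TNBS than in IBC, and 6 of 10 had a larger one in vector than in TNBS. The share of all genes with such an order is not given here. In vector the highest library exceeded the lowest by 8.56-fold for Dbp, 8.34-fold for Ciart, 5.56-fold for Cry1, 5.495-fold for Per3 and 5.13-fold for Tef, against 2.69, 2.61, 2.88, 2.63 and 1.63-fold in IBC. In TNBS these were 2.95, 2.41, 2.12, 3.02 and 2.77-fold. Nr1d1 had its widest range in TNBS, at 5.76-fold, against 3.06-fold in vector and 1.57-fold in IBC. No test of this spread was made.

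Libraries were high or low in many of the genes together. Within vector, vector 4 held the lowest value of 6 of the 9 members other than Cry1 and the highest Cry1 and Bmal1, and both vector 4 and vector 5 lay under the group median in 9 of 9. Vector 1 held the highest value of 7 of the 9. In TNBS, TNBS 3 was under the group median in 9 of 9 and TNBS 5 in 8 of 9. Cry1 was left out of these counts of 9 after its values were seen. On the FPKM scale the ratio of Dbp to Bmal1 ran from 0.659 in vector 4 to 19.5 in vector 6, a 29.5-fold range within the control group. It ran from 1.94 to 9.90 in TNBS and from 4.16 to 16.2 in IBC.

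**Figure D3:**
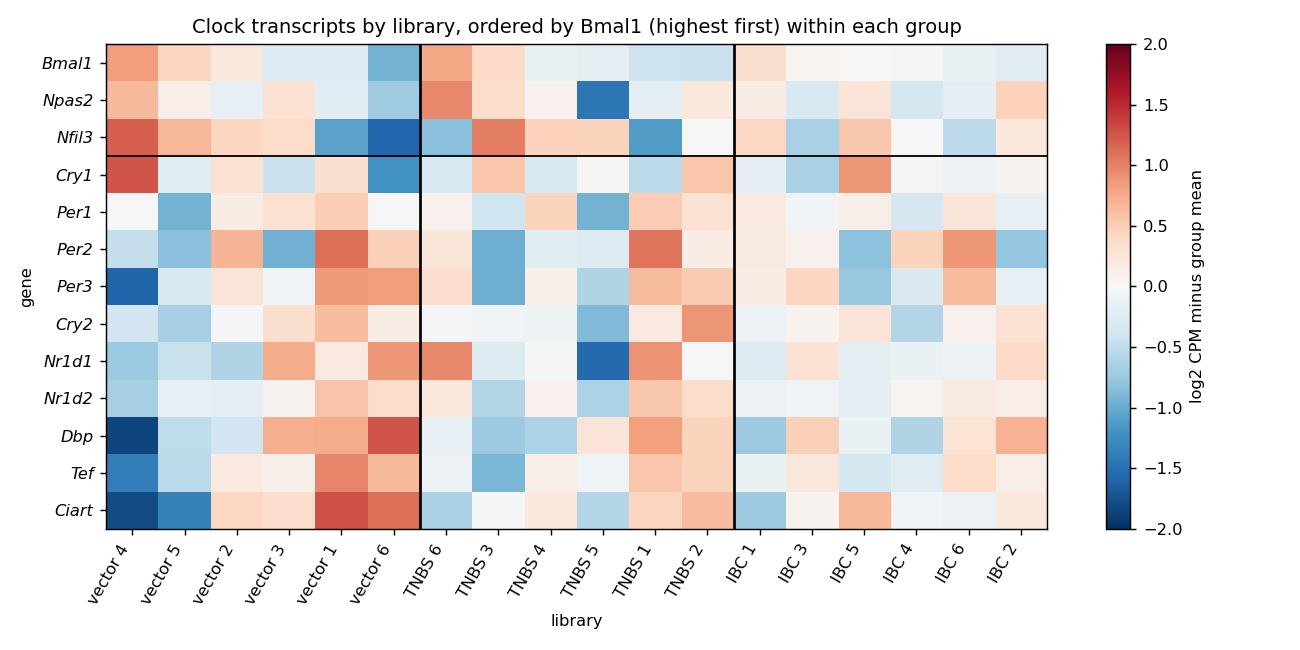
Log2 CPM minus the group mean for 13 clock transcripts (rows) in 18 libraries (columns), ordered within each group by Bmal1, highest first. Vector 4 and vector 5, at the left of their group, are high in Bmal1 and Nfil3 and low in Dbp, Tef and Ciart, and vector 1 and vector 6 at its right show the reverse.

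The relation of each gene with Bmal1, which is not among the 10, was measured on log2 CPM with group means removed. Dbp had Pearson's r = -0.82 (n = 18, permutation p = 0.00047) and Spearman's rho = -0.80 (permutation p = 0.00064), Ciart r = -0.78 (p = 0.00095) and rho = -0.75 (p = 0.0014), and Tef r = -0.76 (p = 0.00447) and rho = -0.78 (p = 0.00106). After adjustment over the 20854 genes related to Bmal1, none passed, in the members or among all genes (0%), with adjusted p-values of 0.600 for Dbp and Ciart and 0.673 for Tef in these permutation tests. Per3 had r = -0.58 (permutation p = 0.0397) with rho = -0.56 (p = 0.0364), and Nr1d2 r = -0.58 (permutation p = 0.0445) with rho = -0.67 (p = 0.0141). The remaining r values were -0.43 for Cry2, -0.33 for Nr1d1, -0.31 for Per2, -0.25 for Per1 and 0.48 for Cry1, with permutation p-values from 0.0994 to 0.414. A negative r was found in 9 of 10 members and in 48.9% of all genes, and a negative r with an unadjusted p under 0.05 in 5 of 10 members and in 3.38% of all genes. The median r was -0.51 over the members and 0.01 over all genes. The members are related to each other, so these counts of 10 are not counts of separate results.

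Vector 4 and vector 5 were the 2 libraries farthest from the median of Bmal1 before group means were removed. Without them r was -0.70 for Dbp, -0.62 for Ciart and -0.57 for Tef, but -0.29 for Per3 and -0.39 for Nr1d2, which therefore rest in good part on these libraries. Vector 6, with the lowest Bmal1 and highest Dbp of its group, stayed in, so these need not be the libraries that weigh most on r. Over each library left out in turn, r ran from -0.90 to -0.75 for Dbp, from -0.82 to -0.69 for Ciart and from -0.83 to -0.66 for Tef. Within the 12 libraries high in Hoxb13 and the 6 low in it, r was -0.72 and -0.97 for Dbp, -0.66 and -0.99 for Tef, and -0.72 and -0.88 for Ciart. The 6 leave few libraries in each group once group means are removed, and such values were not particular to these genes there. In the 6, r was also -0.99 for Per3, -0.96 for Nr1d2 and -0.95 for Cry2, but -0.24 for Per2. The output gene Por had -0.91 in the 6 and -0.10 over all 18. By group (vector, TNBS, IBC; n = 6 each) it was -0.96, -0.61 and -0.72 for Dbp, -0.84, -0.68 and -0.40 for Tef, and -0.86, -0.69 and -0.64 for Ciart, so these 3 genes kept the sign in each group. Cry2 and Nr1d2 kept it too, but the other members did not. Nr1d1 had r = 0.26 in TNBS, and Per1, Per2 and Per3 had 0.34, 0.18 and 0.07 in IBC. Cry1 had 0.84 in vector, -0.0071 in TNBS and -0.20 in IBC. Total count had r = 0.43 with Bmal1, -0.48 with Dbp, -0.66 with Tef, -0.77 with Per3 and 0.71 with Cry1, and the part of depth in these relations was not tested. The summed colonocyte level had r = 0.01 with Bmal1 and 0.06 with Dbp, but -0.58 with Per2, 0.51 with Cry2 and 0.47 with Cry1. That sum is weighted to the marker Car1, which averaged 8744 CPM in the 6 libraries low in Hoxb13 and 979 in the 12 high in it. The summed adipocyte level had r = -0.28 with Bmal1 and 0.23 with Dbp. The part of cell makeup in these relations was not tested.

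**Figure D4:**
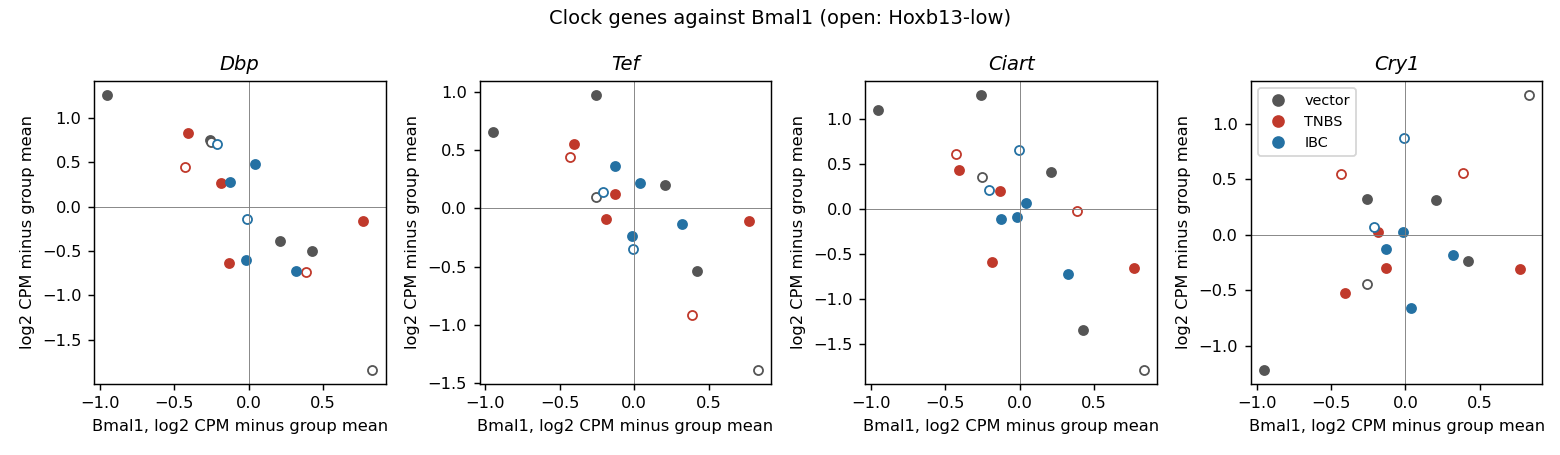
Dbp, Tef, Ciart and Cry1 (vertical axes) against Bmal1 (horizontal axes), each as log2 CPM minus the group mean, 1 point per library, open where Hoxb13 is low. Dbp, Tef and Ciart go down as Bmal1 goes up (r = -0.82, -0.76 and -0.78), and Cry1 does not (r = 0.48).

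Among the members themselves, the 36 pairs that leave out Cry1 all had a positive r with group means removed, from 0.22 to 0.93 with a median of 0.60. The closest pair was Per3 and Tef. Cry1 had a negative r with 8 of the other 9 (-0.66 to 0.02, median -0.48). Cry1 was set apart after these values were seen, so no test was made. Over all 45 pairs the mean r was 0.40, against 0.001 over all pairs of genes tested. Nfil3 had a negative r with each of those 9 (-0.84 to -0.39, median -0.73). All these values share the same 18 libraries and their depth.

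Likeness was ranked over 15807 genes with a mean of at least 1 CPM. The 5 genes most like Dbp were Gm37385 (r = 0.91), Gm43798 (0.90), Ngef (0.88), Gm37167 (0.88) and Gm43590 (0.87), of which all but Ngef, a guanine nucleotide exchange factor, are gene models of class TEC. Tef ranked 11, Ciart 29, Per3 32 and Nr1d2 47. Among those at the other end were Slc35e1 (-0.86), Nek6 (-0.85), Ccdc127 (-0.82) and Smim33 (-0.82), and Bmal1 was at rank 6 from the bottom. Genes most like Bmal1 were Eloa (0.85), Gm45838 (0.80), Rpusd2 (0.78), Slc35e1 (0.77) and Plcxd2 (0.76), and least like it were Bcl2l12 (-0.85), Gm37385 (-0.83), Gm2237 (-0.82), Dbp (-0.82) and Gm43798 (-0.81).

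Between the 6 libraries low in Hoxb13 and the 12 high in it, with the groups in the fit, 2 of 10 members were called, Per2 and Cry1. That is a share near the 15.6% of all genes called (7.38% lower and 8.2% higher in the 6), so the count is not particular to the clock genes. Per2 was at 15.5 to 34.0 CPM in the 6 and at 20.6 to 78.9 in the 12 (means 21.9 ± 6.98 and 44.4 ± 17.8, SD), a log2 difference of -1.01 ± 0.27 (edgeR adjusted p = 0.0161). All 6 lay under the median of the 12. Cry1 was at 13.3 to 43.1 CPM in the 6 and at 7.77 to 23.1 in the 12 (means 28.7 ± 11.1 and 16.9 ± 4.63), a log2 difference of 0.76 ± 0.23 (edgeR adjusted p = 0.0276). Vector 4, TNBS 2, TNBS 3 and IBC 5 exceeded all 12, while vector 3 and IBC 2 lay among them. The Cry1 call was lost without vector 4, TNBS 2, TNBS 3 or IBC 5 (log2 differences 0.56, 0.76, 0.75 and 0.67, edgeR adjusted p = 0.114, 0.0571, 0.0537 and 0.0918) and with limma on log2(FPKM + 0.1) (log2 difference 0.58, adjusted p = 0.121), and the Per2 call was kept in each of these. Per3 had -0.66 ± 0.28 (edgeR adjusted p = 0.122), and without TNBS 2 it passed as well (-0.96, adjusted p = 0.0296).

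Clock was also lower in the 6 libraries (56.6 ± 16.1 against 83.3 ± 11.9 CPM, log2 difference -0.58 ± 0.13, edgeR adjusted p = 0.00624), and Bmal1 was not called (0.08 ± 0.22). Of the other clock lists, 2 of 7 activators were lower (Clock and Rorb), 3 of 9 output genes higher (Por, Usp2 and Nampt) and none of the 4 repressors or 6 kinases and ligases was called. In this comparison 15.6% of all genes were called, 7.38% lower and 8.2% higher in the 6. Por, the electron donor of microsomal P450 enzymes, had the smallest p (1.05 ± 0.15, edgeR adjusted p = 0.000101). Cell type markers moved with this split. Of those called, 5 of 5 adipocyte, 4 of 8 smooth muscle, 3 of 8 colonocyte and 3 of 5 enteric neuron and glia markers were higher in the 6, and 4 of 4 B cell, 1 of 6 neutrophil, 1 of 5 fibroblast and 1 of the 3 squamous epithelium markers tested lower. The summed colonocyte level was 8374 to 21514 CPM in the 6 and 4064 to 7986 in the 12. Most of that gap came from the marker Car1, with means of 8744 CPM in the 6 and 979 in the 12. Of the 8 colonocyte markers, 5 had estimates above 0 and 3 below 0, Slc26a3 among the latter (-1.01 ± 0.43). Total counts were 64.0 to 78.9 in the 6 and 55.7 to 66.3 in the 12, in units of 1000000 counts. Gene models of class TEC took 0.0479% to 0.0773% of counts in the 6 and 0.0495% to 0.0921% in the 12, and across the 18 libraries, on a log2 scale with group means removed, this share had r = 0.73 with Per2, 0.86 with Clock and -0.50 with Cry1. Mitochondrial percent had r = -0.52 with Per2, -0.63 with Clock and 0.021 with Cry1, and was 5.19% to 17.98% in the 6 and 4.48% to 9.20% in the 12. The part of cell makeup, depth and these measures in the Per2 and Cry1 differences was not tested.

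**Figure D5:**
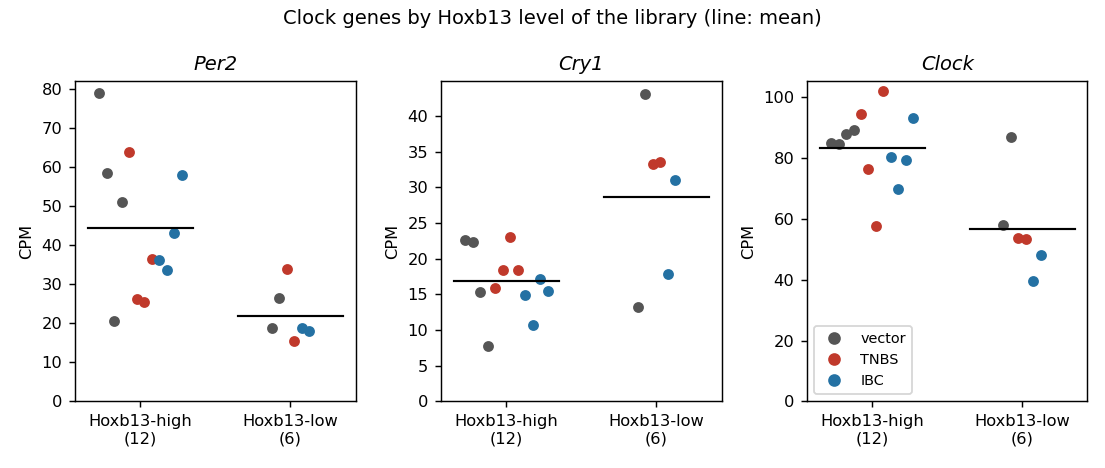
Per2, Cry1 and Clock (CPM) in the 12 libraries high and the 6 low in Hoxb13, coloured by group, with a line at the mean. Per2 averages 44.4 and 21.9 CPM, Cry1 16.9 and 28.7 CPM, and Clock 83.3 and 56.6 CPM.

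Differences between the groups were not shown to depend on the set. A term for group and set together passed for 0 of 10 members in any of the 3 comparisons (edgeR, adjusted over all genes, where 0, 2 and 1 genes passed), with a smallest adjusted p of 0.447, for Ciart in IBC against vector. With the set as a covariate, the estimates for TNBS against vector were -0.66 for Per1, -0.75 for Cry2 and -0.95 for Nr1d1 (edgeR adjusted p = 0.145, 0.118 and 0.153).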

How the data were processed

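Polyadenylated RNA of mouse colon was sequenced in 18 libraries (3 groups of 6). Reads were trimmed with cutadapt 1.9, per the submitters' processing notes. What aligned and counted the reads, with which strand setting and on which build, is not given in the sources used here. As deposited, the authors' table gives, per the file headers, a count and an FPKM value (per kilobase and per 1000000 fragments) for each of 35405 genes and each library. In the deposited counts, 19961 gene and library pairs hold a 4, against 9977 with a 3 and 6358 with a 5, so a fragment may be worth more than 1 count. Of 32979 genes shared with GENCODE M21, 639 have the same start and end, so the table's positions are printed with no build. Promoter windows come from RefSeq (GRCm38.p6).

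Counts were filtered with filterByExpr (20855 genes left), scaled by TMM and tested with edgeR 4.0.16 (quasi-likelihood, two-sided, all 18 libraries in 1 fit with a mean per group, Benjamini-Hochberg over all genes tested, threshold 0.05). CPM is per 1000000 of the scaled totals. Relations with Bmal1 were Pearson's r and Spearman's rho of log2 CPM (prior count 2) with group means removed, by two-sided permutation test with 100000 shuffles within groups. Libraries were divided at 10 CPM of Hoxb13, a division made from the data and not the study's. Alternatives were DESeq2 1.42.0, limma 3.58.1 on log2(FPKM + 0.1) and log2(FPKM + 1), other filters and scalings, the replicate block, each set alone and each library left out. The tests were tested on simulated data.

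Named were the 10 members, Bmal1, Clock, Npas2 and Nfil3 whatever their result, up to 3 other genes of the clock lists with the smallest p in a comparison, and the 5 most and 5 least like Dbp and Bmal1, except 2 genes under this rule that are not reported here. Nampt (called), Car1 and the genes overlapping a member fall outside this rule and were named after their values were seen. The members and lists were chosen with earlier results of these data known. Over all 18 pairs, same-numbered libraries did not deviate together (7 of 18 had r over 0.1, median -0.0208), so they were not treated as pairs. Between TNBS and IBC alone, r was 0.32, 0.49, -0.34, 0.26, 0.01 and 0.17 for libraries 1 to 6, and pairs with a vector library ran from -0.40 to 0.33. No libraries were identical.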

Additional observations from a re-analysis of the deposited data

Results flagged for a closer look

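In 45 tests of a clock gene in a group, 2 libraries lay far from the other 5 of their group. Such a gap comes up by chance in about 1 of 20 groups. Cry1 in IBC 5 was 31.0 CPM, with the nearest IBC library at 17.8 CPM, so 0.652 of the range of the group lay in this gap. Clock in vector 3 was 58.0 CPM, with the nearest vector library at 84.5 CPM and 0.847 of the range in the gap. Both libraries are among the 6 low in Hoxb13, and vector 3 is also the library with 17.98% of its counts from mitochondrial genes.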

How the results depend on the processing

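The count of clock genes called stayed at 0 in all 24 alternatives of each comparison of groups and in all 22 of the relation with Bmal1. With the replicate block, which has no pairing in the labels behind it, it was 0 in each comparison, and all genes called for TNBS against vector went from 4 to 1. Between the sets it was 2, with 1 under limma on log2(FPKM + 0.1) and 1 to 2 over the libraries left out. All genes called ran from 0 to 574 for TNBS against vector (574 with DESeq2, 142 with the set as covariate, 0 to 323 over the libraries left out), from 0 to 2 for IBC against TNBS and from 0 to 186 for IBC against vector (186 with DESeq2, 30 in the 12 libraries high in Hoxb13).

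Some log2 differences, none called, changed sign, and the cause was not tested. In the 6 libraries low in Hoxb13 alone, TNBS against vector gave 0.13 for Per2, 0.18 for Per3, 0.047 for Nr1d2, 0.12 for Tef and 0.66 for Ciart, and IBC against vector 0.15 for Cry2 and 0.59 for Dbp. Per2 in IBC against TNBS was -0.039 with the set as covariate, -0.44 in the 6 libraries and -0.0047 without vector 3 and TNBS 5 together, a setting added after the data were seen. Dbp in IBC against vector was 0.28 and 0.24 with limma at pseudocounts of 0.1 and 1, 0.15 with the replicate block and 0.078 without vector 3 and TNBS 5. Ciart in the same comparison was -0.052 in the 12 libraries high in Hoxb13 alone. Between the sets, limma on log2(FPKM + 0.1), the only limma fit made there, gave -0.11 for Ciart and -0.046 for Bmal1. The r of Per1 with Bmal1 was 0.087 with group means kept. Over the libraries left out, Per2 in IBC against TNBS ran from -0.17 to 0.33, and in IBC against vector Cry1 from -0.44 to 0.14, Cry2 from -0.24 to 0.011 and Dbp from -0.23 to 0.27. Between the sets Per1 ran from -0.081 to 0.084, Nr1d1 from -0.31 to 0.048, Dbp from -0.29 to 0.14, Ciart from -0.076 to 0.36 and Bmal1 from -0.13 to 0.19. For TNBS against vector, small values kept their sign but moved much over the libraries left out, from -0.62 to -0.061 for Per2, 0.026 to 0.55 for Cry1, -0.28 to -0.037 for Nr1d2, -0.56 to -0.15 for Tef and -0.55 to -0.070 for Ciart. With 6 libraries a group, differences smaller than the intervals given could not be seen.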
